A study of Mus musculus with 4 samples.

Results

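The proteasome and immunoproteasome genes were examined in single cells of the mouse brain 3 days after permanent stroke. Members were all features whose symbol starts with Psma, Psmb, Psmc, Psmd, Psme or Psmf followed by a digit, with pseudogene names left out, which gave 46 of 32286 features. They fell into 7 core alpha subunits, 7 core beta subunits and 5 immuno subunits. To the 19S particle belonged 6 ATPases of its base, 11 non-ATPase subunits and 3 assembly factors. The rest were 3 other activators or inhibitors, 2 tissue-restricted core subunits and 2 other name matches, Psmc3ip and the Psme2 retrocopy Psme2b. In all 3 comparisons below 45 members passed the filter on low counts, and Psmb11, a thymus-restricted core subunit with 0 to 4 UMIs (unique molecules counted) per pool, did not.

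The proteasome is the main protease of the cytosol and nucleus. A barrel of alpha and beta rings holds the catalytic sites, and the 19S particle recognizes ubiquitin-tagged proteins, unfolds them with its ring of ATPases and feeds them into the barrel. Interferons induce alternative catalytic subunits and the activator PA28, made of Psme1 and Psme2, and the resulting immunoproteasome is known for producing peptides for MHC class I molecules. Microglia, the resident macrophages of the brain, are among the cells that carry both forms.

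Cells came from mice of the genotype Tmem119-2A-CreERT2;Ai6, in which a tamoxifen-inducible Cre recombinase driven from the microglial gene Tmem119 turns on the fluorescent protein ZsGreen. Live ZsGreen+ cells were sorted from the hemisphere on the operated side. Mice of each sex had sham surgery or permanent occlusion of the right middle cerebral artery (pMCAO, here called stroke) and were collected on day 3, which made 4 groups, and each group was 1 library pooled from 4 mice. All 4 groups carried the Cre driver and the reporter, and no pool was repeated, so variation between mice was not measured.

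The 20437 barcodes held 29581392 UMIs in the female sham and 66072270 in the female stroke library, and 40970923 and 52733857 in the male ones. The lowest barcode had 500 or 501 UMIs in 3 pools and 4198 in male sham. Below, values in pool order are those of the 2 female pools, sham before stroke, and then of the 2 male pools, sham before stroke. After filters, 18037 cells remained, and the pairs of pools shared 3 to 9 barcodes. Clusters were built from 2000 variable genes, none of them a member, and 9 clusters that carried all 9 microglial markers gave 12772 microglia-like cells (3170, 2898, 4004 and 2700 in pool order). Sham cells lay mostly in clusters 0, 1 and 3, and stroke cells mostly in cluster 2, in cluster 6 led by Ifit3, and in clusters 7 and 11 led by the cell division genes Top2a and Ccnb2. The sort was therefore not pure microglia: cells with markers of choroid plexus, neurons, dendritic cells, neutrophils and T or NK cells were also present. A further cluster led by Spp1 (cluster 5; 1, 574, 10 and 560 cells in pool order) carried all 9 microglial markers, but Fn1, which is on the macrophage list, was among its 10 leading genes, and it was left unnamed. Cluster 4, led by Arg1 and holding 4, 1038, 17 and 548 cells, was left unnamed because Pf4 and Ms4a7 were among its leading genes.

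The promoters of 3 immuno subunits are shown, 5′ to 3′ on the strand of the gene. They run from 250 bases before to 50 after the transcript start, as given by RefSeq on GRCm38.p6. Psmb8 is at chr17:34197945-34198244 on the + strand, Psmb9 at chr17:34187281-34187580 on the - strand and Psme1 at chr14:55578244-55578543 on the + strand. Capitals mark matches of the interferon response motif, which reads GAAA, any 2 bases and GAAA again, searched on both strands.
Psmb8: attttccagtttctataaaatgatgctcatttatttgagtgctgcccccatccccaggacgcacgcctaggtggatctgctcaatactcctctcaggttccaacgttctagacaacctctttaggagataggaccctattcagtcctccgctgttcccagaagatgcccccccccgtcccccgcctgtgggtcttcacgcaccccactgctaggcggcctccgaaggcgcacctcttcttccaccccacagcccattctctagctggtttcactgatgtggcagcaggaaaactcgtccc
Psmb9: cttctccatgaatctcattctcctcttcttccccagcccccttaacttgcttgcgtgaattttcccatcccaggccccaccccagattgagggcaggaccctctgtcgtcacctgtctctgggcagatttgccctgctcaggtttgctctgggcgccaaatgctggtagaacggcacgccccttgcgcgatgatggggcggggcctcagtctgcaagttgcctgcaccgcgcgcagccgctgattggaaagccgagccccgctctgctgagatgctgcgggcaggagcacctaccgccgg
Psme1: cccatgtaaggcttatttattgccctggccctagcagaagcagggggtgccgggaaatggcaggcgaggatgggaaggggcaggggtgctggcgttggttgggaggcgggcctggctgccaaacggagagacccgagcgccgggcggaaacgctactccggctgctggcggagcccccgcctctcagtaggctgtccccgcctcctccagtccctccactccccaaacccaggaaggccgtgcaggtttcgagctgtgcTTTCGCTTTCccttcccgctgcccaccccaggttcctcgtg
Psme1 has TTTCGCTTTC, the motif read on the other strand, beginning at position 9 from the start. These letters do not occur in the Psmb8 and Psmb9 windows. Each of the 3 windows lies inside the span given for its gene in the next paragraph, so bases upstream of that span are not in it. The Psmb9 window shares 275 bases (chromosome 17, 34187306 to 34187580) with the window of Tap1, a peptide transporter gene that starts there on the opposite strand. Windows were found for 39 of the 46 members, 42 windows in all. The interferon response motif occurred in 4 of these 42 windows (Psmb3, Psmd4, Psmd9 and Psme1) and in 3.44% of all 32851 windows. A match of letters is a description and not a measured binding site.

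On GRCm38, Psmb8 lies on chromosome 17 from 34197721 to 34201454 on the + strand, Psmb9 on chromosome 17 from 34181987 to 34187764 on the - strand, and Psmb10 on chromosome 8 from 105935735 to 105938444 on the - strand. Psme1 (chromosome 14, 55578123 to 55581529, + strand) and Psme2 (chromosome 14, 55587441 to 55591113, - strand) are near neighbours. Psme2b, a retrocopy on chromosome 11 from 48945354 to 48946190, resembles Psme2 in sequence and may share reads with it, so the values of both are uncertain. The counterparts of the inducible catalytic subunits are Psmb5 on chromosome 14 (54614119 to 54618022, - strand), Psmb6 on chromosome 11 (70525367 to 70527858, + strand) and Psmb7 on chromosome 2 (38588036 to 38644087, - strand).

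The first comparison asked how proteasome transcripts of microglia-like cells differed between stroke and sham. The genes of the core barrel rose most: all 7 beta subunits and 5 of 7 alpha subunits rose after stroke. Of the 5 immuno subunits 3 rose, of the 6 ATPases 3, of the 11 non-ATPase subunits 5, and of the 3 assembly factors 0. In all, 25 of 45 members rose and 0 fell, where 21.9% of the 13936 features tested rose and 20.7% fell (edgeR, adjusted p below 0.05, on counts summed per pool and scaled by TMM, with sex as a term). The median log2 change was 0.41 over the members and -0.04 over all features tested. By group the medians were 0.75 for core beta, 0.47 for core alpha, 0.41 for immuno, 0.35 for the ATPases, 0.26 for the non-ATPase subunits and 0.06 for the assembly factors. With 4 sums and 3 coefficients, only 1 degree of freedom is left for the error, and it holds how far the male and female responses differ.

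**Figure D1:**
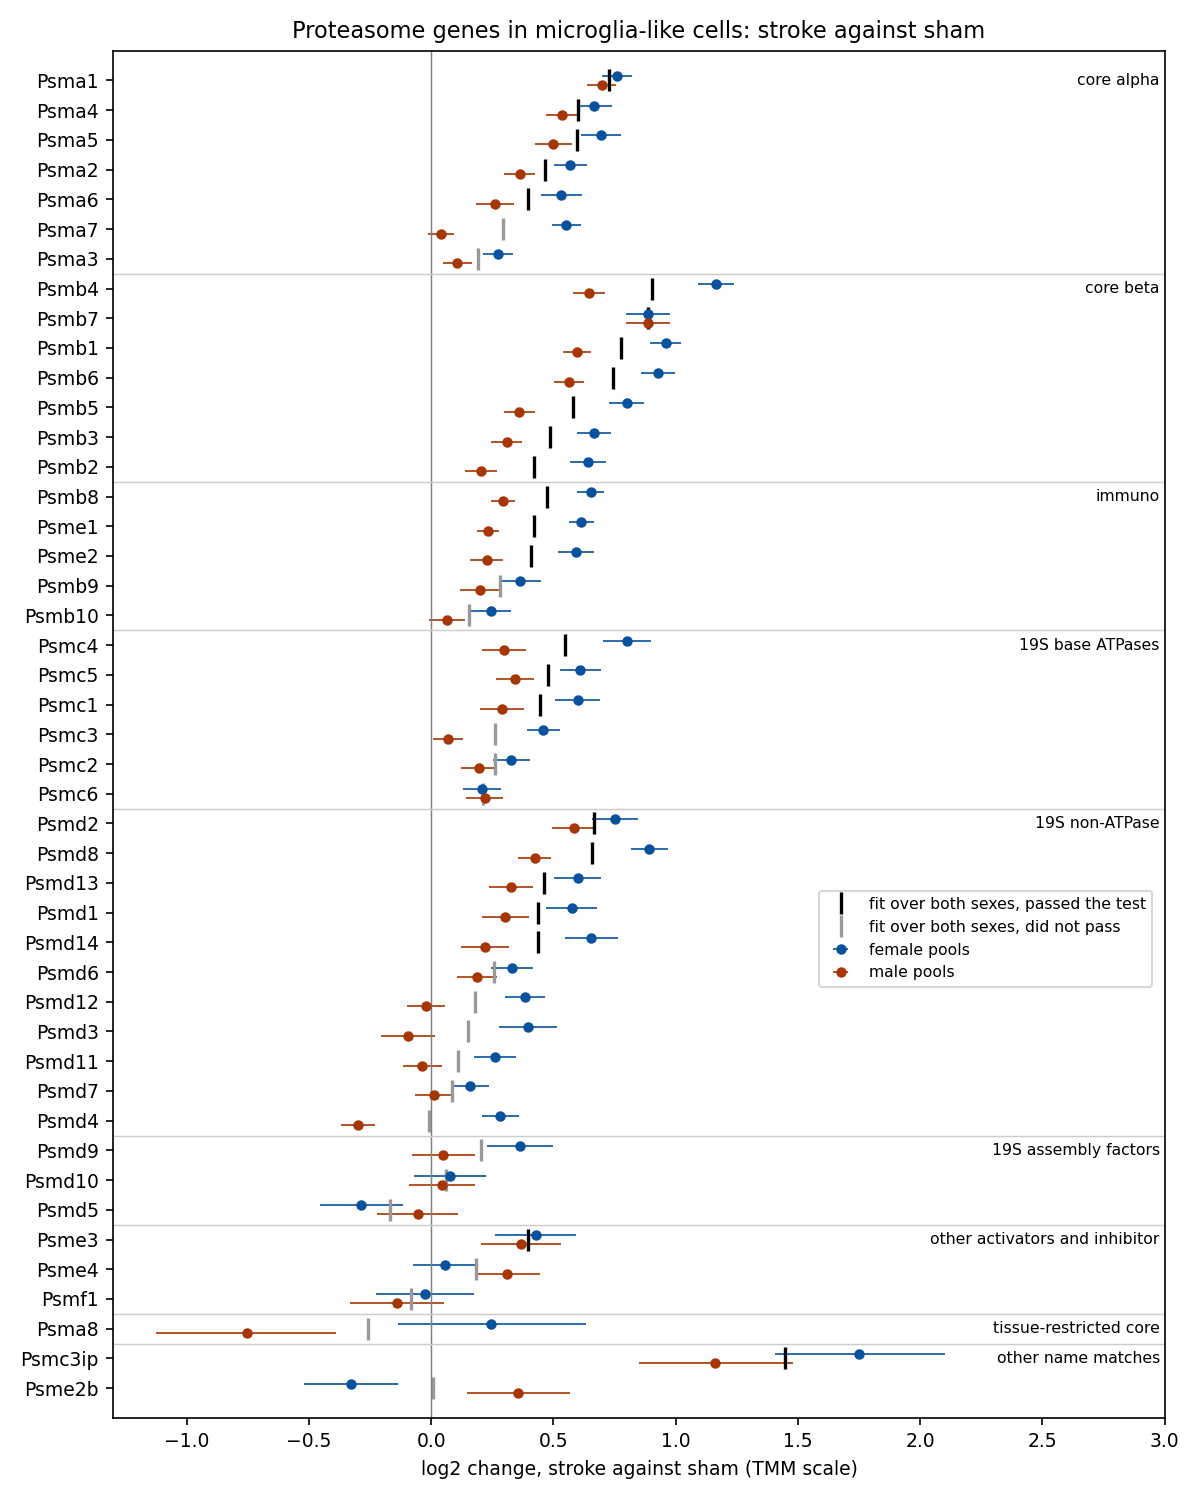
Log2 change of each member in microglia-like cells, stroke against sham, on the TMM scale: blue and brown points are the female and the male pools with 95% counting intervals (1 pool per sex and treatment), and vertical ticks are the fit over both sexes, black where it passed the test. Among the proteasome subunits Psmb4, a core beta gene, lies farthest to the right at 0.90, the name match Psmc3ip lies beyond it at 1.45, and Psmd4 and Psme2b have the 2 sexes on opposite sides of 0 with both intervals clear of it.

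The count of 25 depended on single pools, on the scaling and on cycle-high cells, those with cell cycle transcripts. Leaving out female stroke gave 10 rises (12.9% of all features rose), leaving out male stroke 11 (14.3%), leaving out male sham 39 (28.2%) and leaving out female sham 31 (26.5%). With library totals in place of TMM, 11 members rose and 1 fell (Psmd5), where 14.7% of features rose and 40.4% fell, no immuno subunit passed, the median over all features was -0.30 and over members 0.15, and rises were 26.7% of all calls in place of 51.5%. Cells thinned to 3000 UMIs gave 11 rises, where 16.1% of features rose and 11.8% fell. When cells with at least 3 UMIs of a list of 36 S and G2M phase genes were also left out, 4 rises remained, those of Psma1, Psmb1, Psmb4 and Psmb7, where 11.6% of 11649 features rose and 7.47% fell. The same cells at full counts, an alternative added after the data were seen, gave 9 rises (Psma1, Psma5, Psmb1, Psmb4, Psmb7, Psmb8, Psmd8, Psme1 and Psme2) and 1 fall (Psmc3ip), where 16.4% of features rose and 14% fell.

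Psmb4, a non-catalytic beta subunit, was measured at 1.01 UMIs per 10000 in female sham, 1.84 in female stroke, and 1.26 and 1.69 in the matching male pools. Both stroke pools lay above both sham pools. Its log2 change was 0.90 ± 0.15 (SE, adjusted p = 2.2e-05). Psmb1, another non-catalytic beta subunit, went from 1.46 to 2.32 in the female pools and from 1.76 to 2.28 in the male pools, with a log2 change of 0.78 ± 0.15 (adjusted p = 0.00011). Psma1, a subunit of the alpha ring that closes the barrel, was at 1.63 and 2.25 in female sham and stroke and at 1.596 and 2.22 in male sham and stroke. Its sham pools were close to each other, as were its stroke pools, and its log2 change was 0.73 ± 0.14 (adjusted p = 0.00016). Of the other alpha subunits, Psma4 changed by 0.60 ± 0.14 (adjusted p = 0.0011) and Psma5 by 0.60 ± 0.14 (adjusted p = 0.0012). Psma7 (0.30, adjusted p = 0.12) and Psma3 (0.19, adjusted p = 0.29) did not pass.

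The 3 constitutive catalytic subunits all rose. Psmb7, which carries the trypsin-like site, was at 0.72 UMIs per 10000 in female sham, 1.09 in female stroke, and 0.67 and 1.05 in the matching male pools. The sexes gave the same step, and the log2 change was 0.89 ± 0.14 (adjusted p = 1e-05). Psmb6, with the caspase-like site, was at 1.26 and 1.96 in the female pools and at 1.48 and 1.88 in the male pools (0.75 ± 0.15, adjusted p = 0.00017). Psmb5, with the chymotrypsin-like site, was at 1.16, 1.66, 1.47 and 1.62 in pool order (0.58 ± 0.15, adjusted p = 0.0024). For all 3 genes the stroke pools lay above the sham pools, but at full counts without the cells that had 3 or more cell cycle UMIs the changes of Psmb6 (0.27, adjusted p = 0.12) and Psmb5 (0.27, adjusted p = 0.13) no longer passed, while that of Psmb7 did (0.51, adjusted p = 0.00092). Psmb5 also missed the threshold in thinned cells (0.34, adjusted p = 0.057) and without female stroke (0.56, adjusted p = 0.066) or male stroke (0.59, adjusted p = 0.055).

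The estimates for the immuno subunits were smaller. Psmb8, the inducible partner of Psmb5, was at 2.09 UMIs per 10000 in female sham, 2.69 in female stroke, and 2.57 and 2.70 in the matching male pools, and its log2 change was 0.47 ± 0.15 (adjusted p = 0.012). Psme1, the alpha chain of PA28, was at 2.37, 2.96, 3.01 and 3.03 in pool order (0.42 ± 0.15, adjusted p = 0.025), and Psme2, the beta chain, at 1.13, 1.39, 1.38 and 1.38 (0.41 ± 0.14, adjusted p = 0.024). The step was visible in the female pools, and in the male pools these shares of all UMIs were nearly level. Psmb9, the partner of Psmb6, was at 0.89, 0.93, 0.99 and 0.97 (0.28 ± 0.14, adjusted p = 0.10), and Psmb10, the partner of Psmb7, at 1.03, 0.9997, 1.20 and 1.07 (0.16 ± 0.14, adjusted p = 0.39). Neither passed, and with library totals the estimate for Psmb10 was -0.10. The calls for Psmb8, Psme1 and Psme2 are relative to the TMM scale, and none of the 3 passed with library totals, without female stroke, without male stroke, with a mitochondrial limit of 5%, or in thinned cells without the cycle-high ones. In thinned cells Psmb8 passed (0.37, adjusted p = 0.036), and Psme1 (0.31, adjusted p = 0.089) and Psme2 (0.22, adjusted p = 0.24) did not.

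In the 19S particle, Psmd2, a scaffold subunit of the base, was at 0.69 UMIs per 10000 in female sham, 0.95 in female stroke, and 0.70 and 0.90 in the matching male pools. Both stroke pools were above both sham pools, with a log2 change of 0.67 ± 0.14 (adjusted p = 0.00036). Psmd8, a lid subunit, was at 1.03, 1.56, 1.30 and 1.49 (0.66 ± 0.15, adjusted p = 0.00078). The other members that passed were the ATPases Psmc4 (0.55), Psmc5 (0.48) and Psmc1 (0.44), the lid subunits Psmd13 (0.46) and Psmd14 (0.44), and the scaffold Psmd1 (0.44). Psmd14 is the deubiquitinase of the lid. The ubiquitin receptor Psmd4 was at 1.18, 1.17, 1.58 and 1.10, with an estimate of -0.01 (adjusted p = 0.97). The assembly chaperones Psmd9 (0.21), Psmd10 (0.06) and Psmd5 (-0.17) did not pass, nor did the activator Psme4 (0.18) or the inhibitor Psmf1 (-0.08). The nuclear activator Psme3 rose by 0.40 ± 0.15 (adjusted p = 0.032).

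The largest change among the name matches belonged to Psmc3ip, which is a meiotic recombination factor and not a proteasome subunit. It was at 0.044 UMIs per 10000 in female sham, 0.12 in female stroke, and 0.052 and 0.099 in the matching male pools, with a log2 change of 1.45 ± 0.20 (adjusted p = 1.6e-06). Without cells that had 3 or more cell cycle UMIs its direction turned, to -0.97 (adjusted p = 0.012) at full counts. Psma8, a testis-restricted alpha subunit, was at 0.049, 0.047, 0.071 and 0.036 UMIs per 10000 and did not pass (-0.26, adjusted p = 0.42).

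Other measures moved with treatment in the same summed cells. Summed over 9 macrophage markers, none of them at 0, the level was 0.145 and 0.130 UMIs per 10000 in the sham pools. It was 2.90 and 2.75 in the stroke pools. Leaving out cells with 3 or more such UMIs again gave 25 rises and 0 falls, where 3039 of 13859 features rose and 2852 fell. The 8 choroid plexus markers summed to 5.80 in female sham, 16.8 in male sham, 1.80 in female stroke and 1.19 in male stroke, with 1 to 3 of them at 0 per pool. The 8 neuron markers summed to 0.694 and 0.892 in the sham pools and 0.0613 and 0.0631 in the stroke pools, with 0 of them at 0 in sham and 1 in stroke. The 10 T or NK cell markers summed to 0.726 and 0.696 in sham and 0.322 and 0.311 in stroke, with 3 to 6 at 0. The 9 dendritic cell markers gave 3.32 and 3.57 against 2.13 and 2.12 (0 to 2 at 0), and the 7 neutrophil markers 2.11 and 1.82 against 1.49 and 1.504 (1 to 3 at 0). The dendritic cell list includes Fscn1, a leading gene of microglia-like cluster 0 that was found in 8.33% of dendritic cell-like cells. The part of these 5 lists in the result was not tested. The median mitochondrial share was 2.08% and 1.18% in the sham pools and 4.82% and 4.37% in the stroke pools, and a limit of 5% in place of 10% gave 16 rises, 0 of them immuno genes, where 18.2% of features rose. The median cell had 6174 and 5421 UMIs in sham and 7930 and 7873.5 in stroke.

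Genes that work with the proteasome were read from companion lists in the same fit. Of 12 assembly and proteasome-bound factors 7 rose and 2 fell. The proteasome-bound deubiquitinase Uchl5 (0.96 ± 0.14, adjusted p = 3.8e-06) and the small 19S subunit Sem1 (0.92 ± 0.15, adjusted p = 1.4e-05) rose most, followed by the core chaperone Psmg4 (0.67). Akirin2, known for bringing proteasomes into the nucleus, fell by 0.58 on the log2 scale (adjusted p = 0.0016). Among 7 genes linked to subunit transcription, of which 0 fell, Nlrc5 rose by 2.45 ± 0.25, while Nfe2l1, the factor that induces proteasome genes when proteasomes are inhibited, had an estimate of 0.01 (adjusted p = 0.98). Among 10 delivery factors the unfoldase Vcp rose (0.55) and Ubqln2 fell (-0.41). Those of the 6 ubiquitin genes that rose included Rps27a (0.93), which encodes ubiquitin fused to a ribosomal protein, and the activating enzyme Uba1 (0.86). Of 10 peptide loading genes 5 rose and 1 fell, led by the chaperone Calr (1.49), the peptide transporter Tap1 (1.13), the class I heavy chain H2-K1 (0.88) and its light chain B2m (0.83).

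Summed levels set the groups side by side without a test. The 14 constitutive core genes gave 17.5 UMIs per 10000 in female sham, 23.5 in female stroke, and 20.2 and 23.0 in the matching male pools. The 5 immuno genes gave 7.51, 8.97, 9.14 and 9.15, and the 17 regulatory 19S genes 15.1, 17.1, 17.2 and 16.5. Constitutive core levels were thus higher in both stroke pools, the immuno level was higher in female stroke than in female sham and level in the male pools, and the regulatory 19S level of male stroke was below that of male sham. As log2 ratios of stroke over sham with 95% counting intervals, the constitutive core gave 0.42 (0.41 to 0.44) in females and 0.19 (0.17 to 0.21) in males. The immuno sum gave 0.26 (0.23 to 0.29) and 0.0017 (-0.024 to 0.028), and the regulatory 19S sum 0.18 (0.16 to 0.20) and -0.06 (-0.08 to -0.04). These are shares of all UMIs, and the intervals cover counting error only. In cells thinned to 3000 UMIs the ratios were 0.26 and 0.030 for the constitutive core in females and males, 0.21 and -0.062 for immuno, and 0.015 and -0.18 for regulatory 19S, and the interval of the female regulatory ratio (-0.021 to 0.051) included 0.

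**Figure D2:**
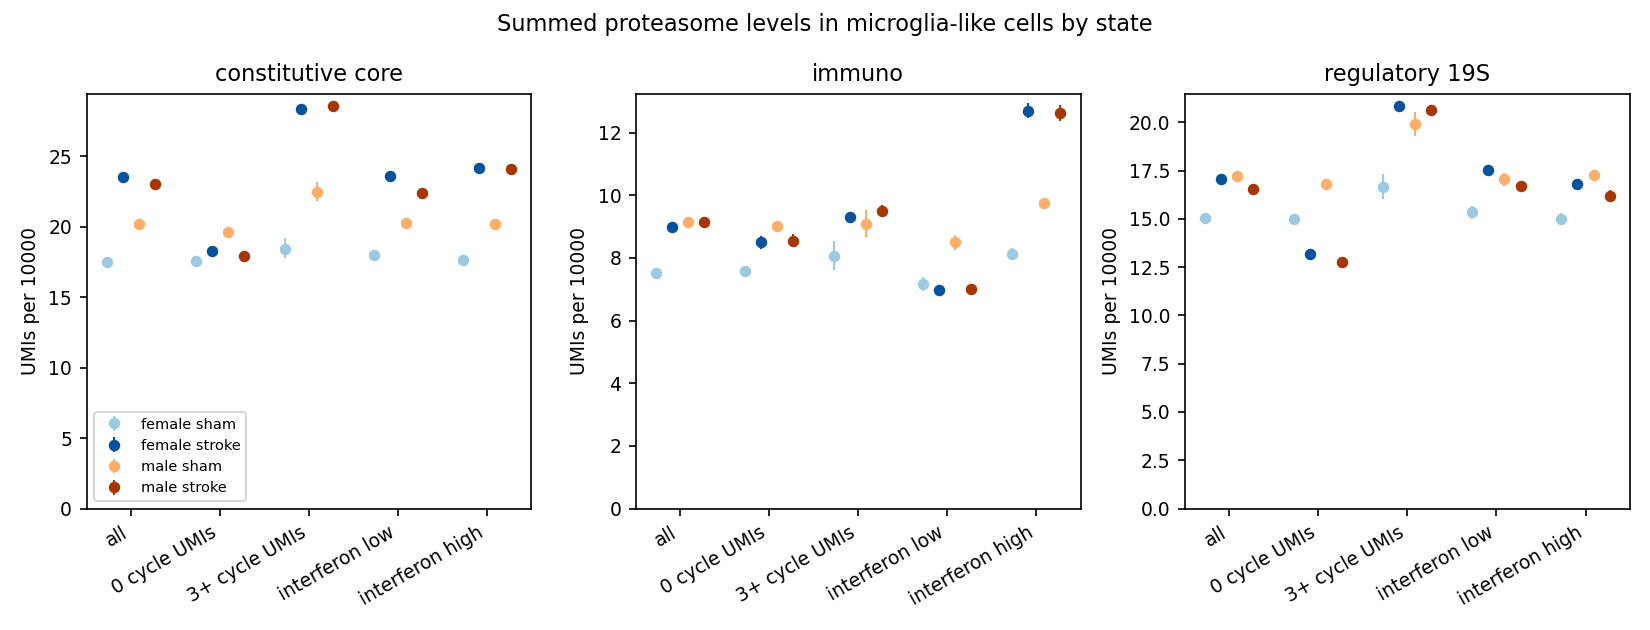
Summed UMIs per 10000 of the constitutive core, immuno and regulatory 19S genes in microglia-like cells, for all cells, cells with 0 or with 3 or more cell cycle UMIs, and interferon-low or interferon-high cells; points are the 4 pools and bars are 95% counting intervals. The stroke pools stand above the sham pools for the constitutive core among cells with 3 or more cell cycle UMIs and for the immuno genes among interferon-high cells. The median cell of these bins also held more cell cycle or interferon UMIs, respectively, in the stroke pools.

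Whether cells with cell cycle transcripts carried more proteasome transcripts was asked within each pool, comparing cells with 3 or more cell cycle UMIs after thinning to 3000 UMIs with cells that had 0. Constitutive and regulatory genes rose in these cycle-high cells and no immuno gene passed. Of 45 members 23 rose and 0 fell, where 17.7% of 12675 features rose and 15.2% fell (edgeR, pool as a block). Of the regulatory 19S genes 13 of 17 rose (5 of 6 ATPases and 8 of 11 non-ATPase subunits), of the constitutive core 7 of 14, and of the immuno genes 0 of 5. The medians were 0.49, 0.40 and 0.08 on the log2 scale, against -0.03 over all features tested. Cycle-high cells made up 6.35%, 33.4%, 7.04% and 29.7% of the thinned cells in pool order, more in both stroke pools. Leaving out either stroke pool left 3 rises (Psma1, Psmc3ip and Psmd14 in both cases), where 9.06% of features rose without female stroke and 9.19% without male stroke. Leaving out the block gave 4 (9.33% of features), and keeping only cells at or below the interferon median gave 11 (12.9%). The median over members was 0.31, 0.28 and 0.43 without female stroke, male stroke and the block, against 0.39. The sham pools had 182 and 282 cells above the limit, and 468, 378, 641 and 343 cells in pool order lay at 2 or 3 cell cycle UMIs, next to it. Thinning left out 304, 254, 0 and 254 shallower cells.

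The largest rises among subunits were in the lid and base of the 19S particle. The deubiquitinase Psmd14 rose by 0.77 ± 0.13 (adjusted p = 0.0045), the scaffold Psmd1 by 0.66 ± 0.16 (adjusted p = 0.018) and the ATPase Psmc4 by 0.62 ± 0.15 (adjusted p = 0.015). Psmc1 (0.59), Psmd2 (0.57) and Psmd13 (0.55) also rose. The activator Psme3 rose by 0.68 ± 0.16 (adjusted p = 0.015), and Psmc3ip by 3.16 ± 0.29 (adjusted p = 0.00013). Among the catalytic subunits Psmb6 (0.57, adjusted p = 0.034) and Psmb7 (0.55, adjusted p = 0.024) rose, and Psmb5 did not pass (0.39, adjusted p = 0.055). For their inducible partners the estimates were 0.08 for Psmb9 (adjusted p = 0.58), -0.04 for Psmb10 (adjusted p = 0.77) and 0.12 for Psmb8 (adjusted p = 0.30). Psme1 (0.04) and Psme2 (0.22, adjusted p = 0.073) did not pass either.

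In levels, cells with 3 or more cell cycle UMIs had 18.5 constitutive core UMIs per 10000 in female sham, 28.4 in female stroke, and 22.5 and 28.6 in the matching male pools. These cells differ between treatments. After thinning their median was 3 cell cycle UMIs in both sham pools, 13.5 in female stroke and 12 in male stroke. Their median total was 6893 UMIs in female sham, 13033 in female stroke, and 5980 and 13399.5 in the matching male pools. Cells with 0 cell cycle UMIs had constitutive core levels of 17.5, 18.3, 19.6 and 17.95 in pool order. Among cells with no cell cycle UMI the stroke pools therefore did not stand above both sham pools. Their regulatory 19S levels were 14.9995 and 16.8 in the sham pools and 13.2 and 12.8 in the stroke pools, the stroke pools being lower. Immuno levels in these cells were 7.57, 8.50, 9.001 and 8.54. Psmb6 shows the same at the level of 1 gene: it was at 1.24, 1.39, 1.44 and 1.25 in cells with 0 cell cycle UMIs and at 1.34, 2.54, 1.66 and 2.63 in cells with 3 or more. Among companion genes of the cycle-high cells, 6 of 12 assembly and proteasome-bound factors rose and 1 fell, with Uchl5 at 1.25, Psmg2 at 0.78, Usp14 at 0.78 and Txnl1 at 0.50. The delivery factors that rose included Vcp (0.38) and Rad23b (0.31), and the companion genes that fell included Irf1 (-0.43), Nfe2l2 (-0.24) and Tapbp (-0.36).

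The immuno genes were next read along the interferon response. Each cell was scored by its UMIs of 30 interferon-induced genes, none a proteasome gene, after thinning to 3000 UMIs, and the cells at or above the 75th percentile of their pool were compared with those at or below the 25th. The bins differ in absolute terms: the upper limit of the low bin was 0 in the sham pools and 2 in the stroke pools, and the lower limit of the high bin was 2 in sham, 10 in female stroke and 12 in male stroke. Of 45 members only Psme1 rose (0.63 ± 0.12, adjusted p = 0.040) and 0 fell, where 1.56% of 12508 features rose and 0.0879% fell (edgeR, pool as a block). The 4 other immuno genes had estimates of a like size and missed the threshold: Psmb9 0.77 ± 0.17 (adjusted p = 0.074), Psme2 0.62 ± 0.14 (adjusted p = 0.066), Psmb10 0.57 ± 0.16 (adjusted p = 0.13) and Psmb8 0.53 ± 0.14 (adjusted p = 0.11). The immuno median was 0.62, the constitutive core median 0.12 and the regulatory 19S median 0.05.

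With the 10th and 90th percentiles as limits, all 5 immuno genes and Psma4, Psmb2 and Psmb4 rose, 8 members where 4.87% of features rose, and the immuno median was 0.90. Leaving out female stroke or male stroke gave 0 members (0.600% and 0.735% of features rose), leaving out female sham 2 (1.7%) and leaving out male sham 3 (2.24%). DESeq2 called 1 member, Psme2, where 1.175% of features rose. A fit without the filter on low counts called 7, where 3.84% of features rose. Without the pool block 0 members passed in edgeR, as did 0 of all 11885 features, and without cells with 3 or more cell cycle UMIs 0 members passed where 1.21% of features rose. The immuno median was 0.67 without the block and 0.63 without those cells, against 0.62. At an unadjusted p below 0.05 there were 10 members in the first fit, 5 without the block and 12 without those cells. The share of all features at that looser threshold was not computed, so these counts have no background to be read against.

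Psme1 was at 2.20 UMIs per 10000 in interferon-low and 2.64 in interferon-high cells of female sham and at 2.30 and 4.11 in female stroke, and the male pools had 2.69 and 3.25 after sham surgery and 2.33 and 4.17 after stroke. High exceeded low in every pool, by more in the stroke pools. Psmb9 was at 0.83 and 0.95, 0.66 and 1.47, 0.86 and 1.05, and 0.66 and 1.42 in pool order. Psmb8 was at 2.09 and 2.23, 2.15 and 3.69, 2.46 and 2.73, and 2.12 and 3.61 in the same order, Psmb10 at 1.02 and 1.09, 0.77 and 1.44, 1.20 and 1.26, and 0.83 and 1.54. For these 3 genes as well, every pool had the higher level in the high bin. Of the constitutive partners, Psmb6 was at 1.33 and 1.27, 2.00 and 1.93, 1.55 and 1.46, and 1.87 and 1.85, with an estimate of 0.02 (adjusted p = 0.89). Psmb5 (0.15, adjusted p = 0.36) and Psmb7 (0.13, adjusted p = 0.29) did not pass either, though Psmb5 was at 1.51 in the low and 1.85 in the high bin of male stroke.

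Over fixed classes of interferon UMIs the 4 pools could be read on 1 scale. Cells with 0 such UMIs had 7.15 immuno UMIs per 10000 in female sham, 6.999 in female stroke, and 8.50 and 6.91 in the matching male pools. Cells with 6 to 10 had 9.58, 9.09, 11.04 and 8.78. Cells with 21 or more had 16.5, 15.2, 19.4 and 14.4. At a given class the stroke pools did not stand above the sham pools, except that female stroke (7.92) was above female sham (7.72) in the class of 3 to 5, and male sham was highest in every class. The classes of 21 or more held 23 and 34 cells in the sham pools and 282 and 336 in the stroke pools. Constitutive core levels ran from 17.97 to 19.1 between the first and the last class of female sham and from 24.2 to 25.7 in female stroke, and from 20.3 to 24.6 and from 21.1 to 24.7 in the matching male pools.

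**Figure D3:**
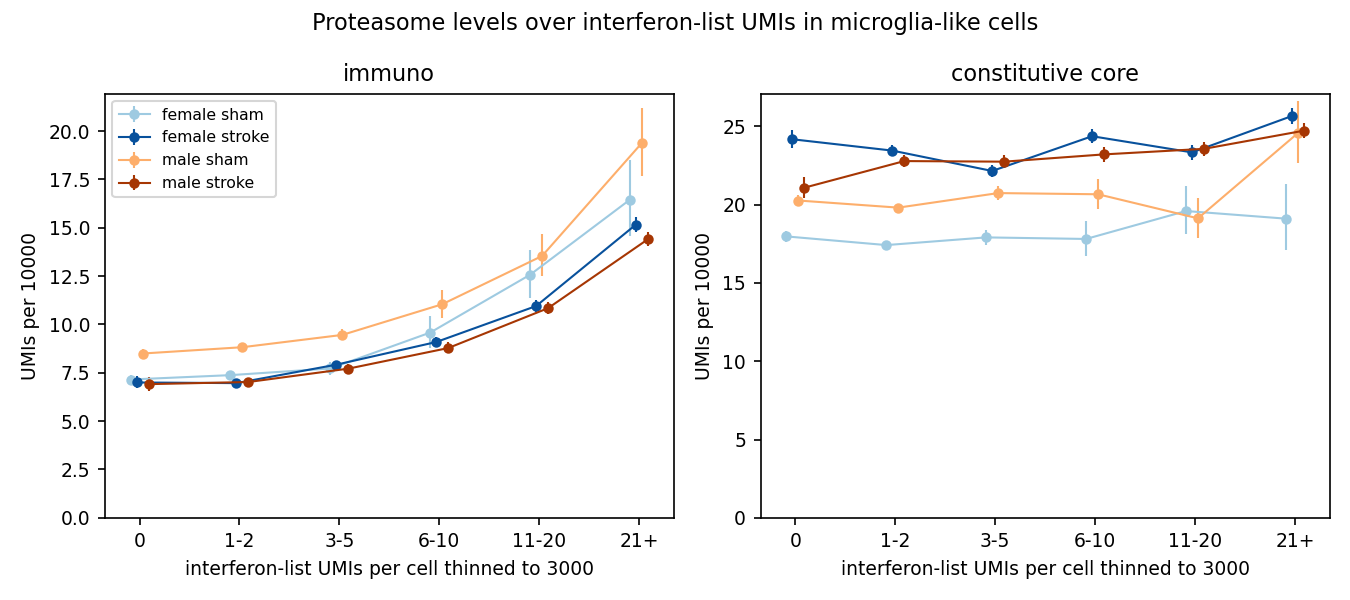
Immuno and constitutive core UMIs per 10000 in microglia-like cells, by the number of interferon-list UMIs in each cell after thinning to 3000 UMIs; lines are the 4 pools and bars 95% counting intervals. The immuno level is about 7 to 8.5 at 0 interferon UMIs and 14.4 to 19.4 at 21 or more in all pools.

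Among companion genes, 5 of 10 peptide loading genes rose in the interferon-high cells, with Tap1 at 1.24 ± 0.24 (adjusted p = 0.034), H2-K1 at 0.84, H2-D1 at 0.72 and B2m at 0.57. Of the genes linked to subunit transcription Nlrc5 rose (2.49 ± 0.31, adjusted p = 0.0032), and Irf1 did not pass (0.69, adjusted p = 0.080). None of the 12 assembly factors, 10 delivery factors or 6 ubiquitin genes passed. The maturation factor Pomp had an estimate of 0.20 (adjusted p = 0.19).

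The share of the inducible subunit within each catalytic pair compares the 2 forms of 1 site across cells. Capture differs between genes, so a share is comparable between pools and cell classes, and not a count of protein subunits. In microglia-like cells Psmb9 made up 41.2% (95% exact binomial interval 39.8 to 42.7) of the UMIs of Psmb9 and Psmb6 in female sham and 32.2% (31.2 to 33.2) in female stroke. In the males it was 39.9% (38.6 to 41.2) after sham surgery and 34.0% (33.0 to 35.1) after stroke. Psmb10 made up 58.9%, 47.9%, 64.3% and 50.4% of Psmb10 and Psmb7. Both shares were lower in the stroke pools of both sexes. Psmb8 was nearly level at 64.3%, 61.9%, 63.6% and 62.5% of Psmb8 and Psmb5. Without the cells with 3 or more cell cycle UMIs the stroke minus sham difference for Psmb9 was -3.46 percentage points in females and 1.66 in males, in place of -9.04 and -5.87, and for Psmb10 -4.60 and -7.39 in place of -10.99 and -13.9. In thinned cells the male difference for Psmb9 was -1.57 (-4.45 to 1.30), an interval that includes 0.

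Within the stroke pools the Psmb9 share differed between states. It was 24.7% and 26.3% in interferon-low and 43.2% and 43.4% in interferon-high cells of female and male stroke. In the sham pools the same bins gave 38.5% and 42.9% in females and 35.7% and 41.7% in males. High exceeded low in each pool. Cluster 6, led by Ifit3, had shares of 53.7%, 46.7%, 55.6% and 47.6% in the 4 pools. In cluster 7, led by Top2a, the shares were 26.3% and 24.5% in the stroke pools. Cluster 13, a microglia-like cluster led by Ccl4, had 17.5%, 12.8% and 23.8% in female stroke, male sham and male stroke. The unnamed cluster 5, led by Spp1, had 17.8% and 19.6% in the stroke pools, next to 24.6% and 24.3% in cluster 4, led by Arg1.

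**Figure D4:**
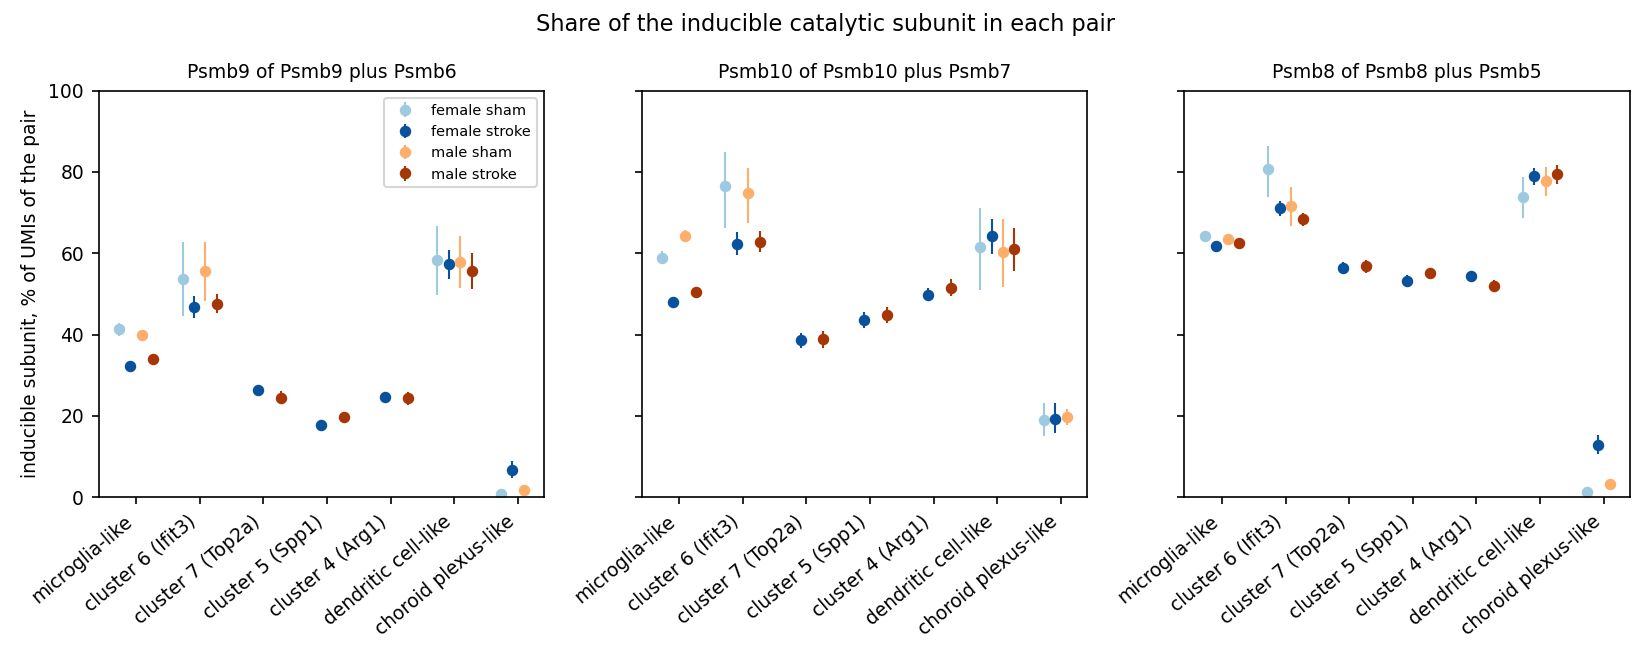
Inducible subunit as a percentage of the UMIs of its catalytic pair, by cell class or cluster and pool, with 95% exact binomial intervals. Classes or clusters with too few cells in a pool are not drawn for that pool. Among the classes and clusters drawn, the Psmb9 share is highest in dendritic cell-like cells and cluster 6, and all 3 shares are lowest in choroid plexus-like cells, where Psmb9 lies between 0.77% and 6.67%.

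Across the clusters of the sort, the constitutive core was high in the unnamed clusters 4 and 5 and in the microglia-like cluster 7. The cells of all 3 came mostly from the stroke pools. Cluster 4 had 34.4 constitutive core UMIs per 10000 in female stroke and 33.9 in male stroke, cluster 5 had 31.9 and 31.8, and cluster 7 had 29.8 and 30.2. All microglia-like cells of those pools, cluster 7 included, had 23.5 and 23.0. Neutrophil-like cells, also mostly from the stroke pools, were below these at 20.5 and 21.1. Their immuno levels were not raised to the same degree, at 10.3 and 9.75 in cluster 4, 8.87 and 9.27 in cluster 5 and 8.81 and 8.87 in cluster 7. Adding cluster 5 to the microglia-like cells, an alternative chosen after the data were seen, gave 29 rises in place of 25, where 24.96% of features rose in place of 21.9%. Cluster 6 had immuno levels of 14.0, 13.6, 15.7 and 12.9 in pool order.

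Dendritic cell-like cells, which present antigen, had 10.2 immuno UMIs per 10000 in the female sham pool (53 cells) and 19.1 after stroke (135 cells), and 12.8 (93 cells) and 18.2 (91 cells) in the male pools. Their constitutive core levels were 17.6, 30.1, 19.97 and 29.3, so both sums were higher in the stroke pools. The Psmb9 share of its pair in these cells was 58.4%, 57.3%, 57.9% and 55.7%, within the counting intervals of each other. In T or NK cell-like cells immuno levels were 13.2 (10 cells), 25.5 (38 cells), 15.9 (12 cells) and 35.7 (24 cells), the highest of the named classes in the stroke pools. Border-associated macrophage-like cells had constitutive core levels of 14.3 and 16.7 in the sham pools and 25.8 and 26.3 in the stroke pools, while their immuno levels were 9.002, 8.40, 10.3 and 10.8 in pool order. In the stroke pools neutrophil-like cells had immuno levels of 6.59 and 5.56 (115 and 68 cells).

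Choroid plexus-like cells stood at the other end, with a full constitutive core and little immunoproteasome. Their constitutive core level was 24.1, 25.4, 24.6 and 24.9 in the 4 pools and their immuno level 2.61, 3.72, 3.15 and 2.89. Most of that immuno sum was Psme1 and Psme2, which these cells carried at 1.57 and 0.71 UMIs per 10000 in female sham. No pair share was computed for male stroke, which had too few cells (46). In female sham, female stroke and male sham the Psmb9 share of its pair was 0.77%, 6.67% and 1.83%. In the same order the Psmb8 share was 1.18%, 12.9% and 3.26%. These 2 shares of female stroke lay above those of the sham pools beyond counting error. The Psmb10 share was 18.9%, 19.2% and 19.7% in the same 3 pools, within counting error of each other. Neuron-like cells had immuno levels of 0.73 in female sham (329 cells) and 2.76 in male sham (136 cells). Free RNA of other cells can give such low counts in droplets, and its part in the values of neuron-like and choroid plexus-like cells was not tested.

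**Figure D5:**
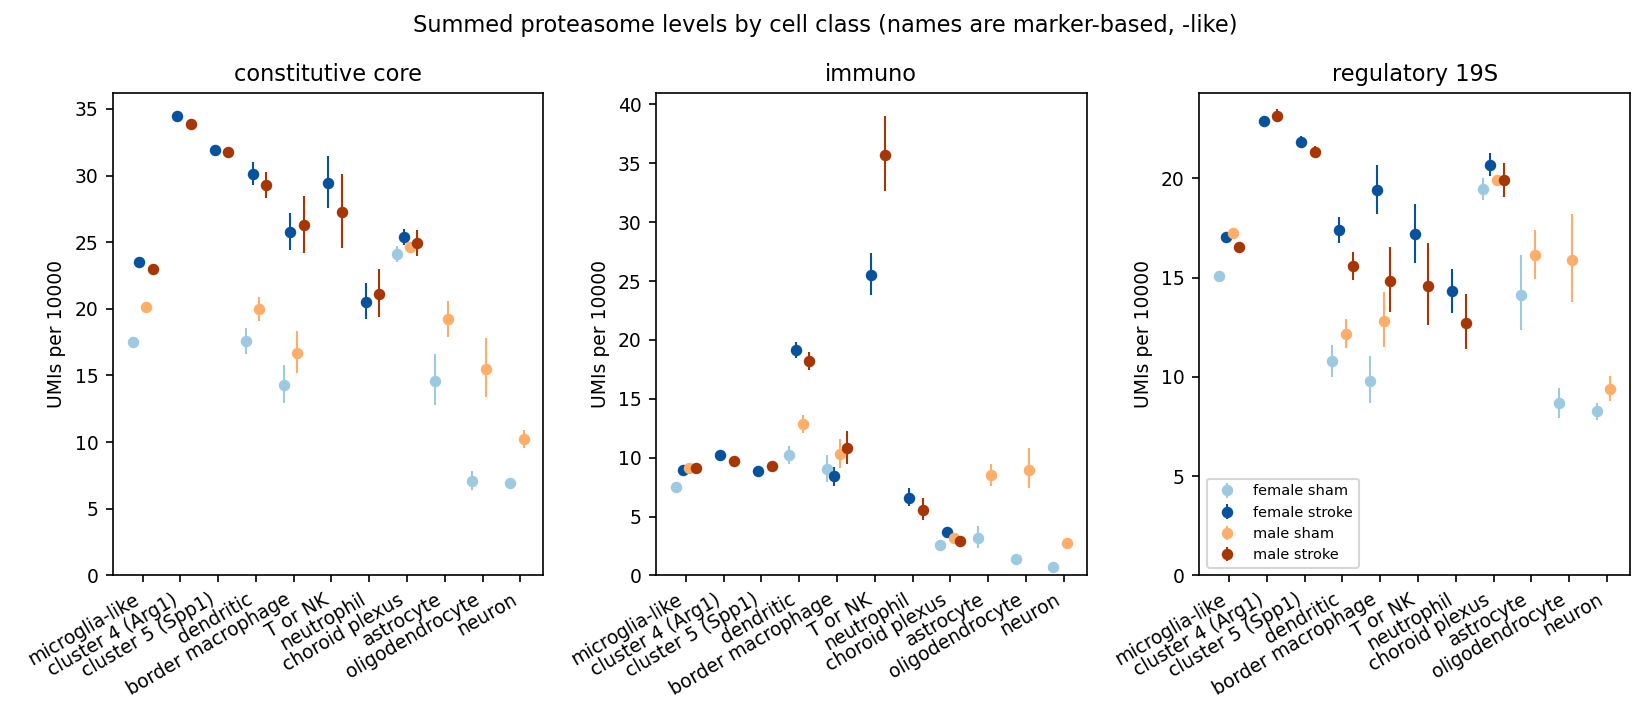
Summed UMIs per 10000 of the constitutive core, immuno and regulatory 19S genes by cell class and pool, with 95% counting intervals; classes with under 20 cells in a pool are not drawn. Immuno levels reach 25.5 and 35.7 in T or NK cell-like cells of the stroke pools and 2.61 to 3.72 in choroid plexus-like cells, whose constitutive core level is 24.1 to 25.4.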

How the data were processed

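Single-cell 3′ libraries (10x Genomics, v3.1) of 4 pools were used. The deposited values are whole-number counts of UMIs per gene and barcode; the authors used Cell Ranger 7.1.0 with mm10 per the submitters' processing notes, while the file headers name cellranger 6.1.2, and nothing read here says how introns were treated. The members and all gene lists were chosen with earlier results of these data known.

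Kept cells had 500 or more genes, 1000 or more UMIs and no more than 10% mitochondrial UMIs (scanpy 1.11.5). A doublet caller, Scrublet, marked 8 cells (0.0443%) and has not worked, so doublets remain in the data. Leiden clusters (resolution 0.8, 30 components, 15 neighbours) were named from fixed markers, with at least 3 markers each in at least 25% of cells; names are rebuilt here and are not the study's. Counts were summed per pool or per pool and bin and tested with edgeR 4.0.16 (quasi-likelihood, TMM, filterByExpr, Benjamini-Hochberg over all tested genes, threshold 0.05, two-sided). With 1 pool per sex and treatment, p-values do not measure variation between mice. The stroke fit has 1 residual degree of freedom, the difference of the response between the sexes. There the spread of each gene was drawn toward that of all genes, with a weight of 25.7 degrees of freedom. In the interferon and cell cycle fits the pool was a block, so p-values measure how bin differences vary between pools. Those fits have 3 residual degrees of freedom, with weights of 6.26 and 5.49. Levels are UMIs per 10000 with exact Poisson intervals and no test; shares have exact binomial intervals. Reads carry UMIs, so intervals cover counting error only. The stroke and interferon fits were tested on simulated counts with 200 changed genes, and the cell cycle fit was not. False calls were 5.76% of all calls in the stroke fit and 9.55% in the interferon fit, where the threshold was 0.05. The simulated counts had no sex or pool effect, and equal numbers of the 200 genes went up and down. They therefore cannot give the error rate where scaling matters, as between TMM and library totals, or between mice.

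Named in full were the 5 immuno genes, the 3 constitutive catalytic subunits, and up to 8 other members per comparison with the largest change past the threshold; of companion lists, up to 4 genes past it, some of which are not reported here. Others are named where a count or group needed it and were chosen after their values were seen. Alternatives were library totals, no low-count filter, DESeq2 1.42.0, no sex or pool term, each pool left out, one UMI minimum for all pools, thinning to 3000 UMIs, a 5% mitochondrial limit, resolution 1.6, other bins, and without cells carrying cell cycle or macrophage UMIs.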

Additional observations from a re-analysis of the deposited data

Results flagged for a closer look

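Psmd4, a ubiquitin receptor of the 19S particle, had estimates of opposite direction in the 2 sexes on the TMM scale, with both counting intervals clear of 0: its log2 change between stroke and sham was 0.28 (95% counting interval 0.21 to 0.36) in the female pools and -0.30 (-0.37 to -0.23) in the male pools. Per 10000 UMIs it was at 1.18 in female sham and 1.17 in female stroke, nearly level, and at 1.58 and 1.10 in male sham and stroke. On the TMM scale Psme2b, the copy of Psme2, had a change of -0.33 (-0.52 to -0.14) in the female pools and 0.36 (0.15 to 0.57) in the male pools. For Psma8, Psmd3, Psmd11 and Psmd12 the estimates also differed in sign, but at least 1 of the 2 intervals included 0. The difference between the sexes was not tested for any of these genes, since each sex had 1 pool per treatment, and reads of Psme2b may be shared with Psme2.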

How the results depend on the processing

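For stroke against sham, the count of 25 members that rose became 11 with library totals, 11 in thinned cells, 16 with the stricter mitochondrial limit, 4 in thinned cells without cycling cells and 9 at full counts without them, and ranged from 10 to 39 with each pool left out. The count of members that fell, 0, became 1 with library totals and 1 at full counts without cycling cells, and ranged from 0 to 1 with each pool left out. Psmb10 turned to -0.10 with library totals. Without cycling cells Psmc3ip turned to -0.83 in thinned cells and to -0.97 at full counts, and fewer cells entered both fits. In thinned cells with the cycling ones kept, Psmc3ip still rose. For interferon-high against interferon-low cells, 1 member rose, where 1.56% of features did. The count became 7 without the filter (3.84% of features rose) and 0 without the pool block (0%). It was 8 with the 10th and 90th percentiles (4.87%) and 0 without cycling cells (1.21%). With each pool left out it ranged from 0 to 3, where the share of features ran from 0.600% to 2.24%. Psmb6 turned to -0.054 with library totals and, with each pool left out, ranged from -0.028 to 0.0499. For cycling against non-cycling cells, 23 members rose, where 17.7% of features did. The count became 4 without the pool block (9.33% of features rose) and 11 in cells at or below the interferon median (12.9%). With each pool left out it ranged from 3 to 30, where the share of features ran from 9.06% to 21.2%. The count that fell became 1 at 5 or more cell cycle UMIs, where 3042 of 12649 features fell. Psmb8 turned to -0.016 and Psmb9 to -0.18 at or below the interferon median, and Psmb10 ranged from -0.11 to 0.067 with each pool left out. The cause was not tested for these changes. Some alternatives hold fewer cells or pools than the first fit, while library totals, no filter and no pool block use the same ones. Over all single members named, 219 alternatives of the stroke comparison kept direction and side of the threshold, 30 lost the call and 4 gained one; for the interferon bins these counts were 60, 5 and 12, and for the cell cycle bins 125, 27 and 5.

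The log2 ratios of summed levels moved as follows. At higher Leiden resolution they were 0.52 and 0.25 for the constitutive core in females and males, 0.34 and 0.057 for immuno, and 0.27 and -0.0076 for regulatory 19S. With the unnamed cluster 5 they were 0.55 and 0.33 for the constitutive core, 0.28 for female regulatory 19S and 0.047 for male regulatory 19S, a change of sign. With the stricter mitochondrial limit they were 0.16 for the male constitutive core, -0.037 for male immuno, and 0.20 and -0.034 for regulatory 19S. In thinned cells they were 0.26 and 0.030 for the constitutive core, 0.21 and -0.062 for immuno, and 0.015 and -0.18 for regulatory 19S; without cells carrying macrophage UMIs they were 0.40 and 0.16, 0.21 and -0.044, and 0.16 and -0.082. With the UMI minimum of male sham in all pools the male constitutive core was at 0.21. Without cycling cells at full counts they were 0.10 and -0.10 for the constitutive core, 0.21 and -0.029 for immuno, and -0.16 and -0.36 for regulatory 19S. For the pair shares, stroke minus sham without cycling cells was -3.46 and 1.66 percentage points for Psmb9, -4.60 and -7.39 for Psmb10, and 1.89 and 2.44 for Psmb8; in thinned cells it was -7.002 for Psmb10 in females, 1.71 for Psmb8 in females, a change of sign, and -1.57 for Psmb9 in males; with cluster 5 it was -13.6 and -10.5 for Psmb9 and -4.74 and -3.24 for Psmb8; and the stricter mitochondrial limit gave -11.9 for Psmb10 in males.

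No paired analysis was possible because each group is 1 pool and the labels give no replicate numbers, as far as stroke against sham is concerned. The bins of 1 pool were compared with the pool as a block. Variation between mice, doublets and free RNA limit all values, and low genes such as Psma8 and Psmc3ip rest on few UMIs per pool.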
